A study of Mus musculus with 3 samples.

Results

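The proteasome subunit genes are the genes for the protease complex that degrades ubiquitin-tagged proteins, and they were followed in cultured mouse spleen cells after contact with urine. They were taken as all genes of a 1-colour Agilent expression array named Psma, Psmb, Psmc, Psmd, Psme, Psmf or Psmg with a number, leaving out Psmb8, Psmb9 and Psmb10 of the immunoproteasome. This gave 44 of the 36609 genes on the array: 16 of the 20S core, 20 of the 19S cap and 8 regulators. The rule itself used names only and no measured value, but it was set with earlier results of these data known. Psme2 had no probe under its own symbol.

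Spleen cells of a 6-month-old male MRL/MpJ mouse, a strain without the Fas mutation, were cultured after lysis of red cells. They were brought for 3 hours into contact with MRL/MpJ urine, with urine taken from MRL/MpJ-Faslpr/lpr animals (here called lpr urine), or with PBS as the control. MRL/MpJ-Faslpr/lpr mice lack functional Fas, a death receptor of lymphocytes, and are used as a model of lupus-like autoimmune disease. Urine came from males aged 6 months, was pooled from 6 mice per strain and was passed through a 0.22 µm filter. Each condition was measured on 1 array, so each difference compares 1 array with another, has no replicate check and carries no p-value.

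In the proteasome, the barrel-shaped 20S core encloses the protein-cutting sites. Its outer rings are built of alpha subunits (Psma genes), which gate the entry, and its inner rings of beta subunits (Psmb genes), some of which are the proteases. The 19S cap binds ubiquitin chains, removes them and threads the substrate inwards with a ring of ATPases (Psmc genes), while most of its other subunits come from Psmd genes. Activators (Psme genes) can replace the cap, and the protein PI31 (Psmf1) binds the core. Chaperones help with assembly, those of Psmg genes for the core and those of some Psmd genes for the cap. Spleen lymphocytes also carry an immunoproteasome, whose alternative beta subunits shape the peptides shown on MHC class I.

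The probes of Psmb2, a beta subunit of the core, are shown first because they measured opposite differences. The array has 3 probes for this gene, all on the plus strand of chromosome 4 in the mm9 build. A probe to the cDNA clone AK164463 lies at chr4:126362768-126362827, and 2 probes to the RefSeq mRNA lie at chr4:126361456-126364299 and chr4:126361432-126364275. Capitals mark the 36 bases that both RefSeq probes share, and the clone probe holds none of them.
Psmb2 clone probe: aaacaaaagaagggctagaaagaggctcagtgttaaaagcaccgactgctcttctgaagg
Psmb2 RefSeq probe 1: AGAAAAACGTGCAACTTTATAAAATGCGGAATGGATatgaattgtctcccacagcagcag
Psmb2 RefSeq probe 2: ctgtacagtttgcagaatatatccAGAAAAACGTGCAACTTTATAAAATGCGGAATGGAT
The 60 bases of each RefSeq probe are spread over 2844 bases of the genome, and the clone probe lies inside that span. Stretches of at least 30 bases of the clone probe also matched, at 85% identity or more, the promoter windows of 22 other genes. Neither RefSeq probe matched any such window.

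Promoters are shown for 4 of the lowest members and for Psmd14, the 1 gene of the 19S cap above 0, because motifs were counted in them. RefSeq windows of 250 bases before to 50 bases after the transcription start (GRCm38.p6) were found for 36 of the 44 genes. Capitals mark the letters searched on both strands: the antioxidant element core TGANNNNGC, the CCAAT box CCAAT and the ETS core CGGAAG. Psmc1 at chr12:100109952-100110251 (plus strand) is a cap ATPase, Psmd6 at chr14:14120896-14121195 (minus strand) and Psmd11 at chr11:80428365-80428664 (plus strand) are lid subunits of the cap. Psmb5 at chr14:54617946-54618245 (minus strand) is the core's chymotrypsin-like protease, and Psmd14 at chr2:61711444-61711743 (plus strand) is the cap's deubiquitinase.
Psmc1 promoter: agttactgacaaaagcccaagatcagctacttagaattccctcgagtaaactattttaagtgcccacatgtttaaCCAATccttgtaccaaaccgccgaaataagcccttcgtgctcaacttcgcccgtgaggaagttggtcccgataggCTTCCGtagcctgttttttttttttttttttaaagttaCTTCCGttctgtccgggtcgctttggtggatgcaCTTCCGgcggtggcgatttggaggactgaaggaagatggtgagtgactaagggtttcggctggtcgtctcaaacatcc
Psmd6 promoter: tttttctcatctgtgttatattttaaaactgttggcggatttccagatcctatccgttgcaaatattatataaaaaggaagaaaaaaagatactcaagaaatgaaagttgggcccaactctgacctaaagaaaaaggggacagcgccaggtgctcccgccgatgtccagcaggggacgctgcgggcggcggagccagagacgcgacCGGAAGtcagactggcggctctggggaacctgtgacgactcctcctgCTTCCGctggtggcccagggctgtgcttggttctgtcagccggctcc
Psmd11 promoter: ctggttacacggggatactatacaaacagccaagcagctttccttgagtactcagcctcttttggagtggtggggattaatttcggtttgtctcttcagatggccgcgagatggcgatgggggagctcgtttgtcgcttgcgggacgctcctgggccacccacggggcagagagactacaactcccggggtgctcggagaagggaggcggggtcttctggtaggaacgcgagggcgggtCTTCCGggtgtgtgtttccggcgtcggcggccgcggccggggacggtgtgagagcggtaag
Psmb5 promoter: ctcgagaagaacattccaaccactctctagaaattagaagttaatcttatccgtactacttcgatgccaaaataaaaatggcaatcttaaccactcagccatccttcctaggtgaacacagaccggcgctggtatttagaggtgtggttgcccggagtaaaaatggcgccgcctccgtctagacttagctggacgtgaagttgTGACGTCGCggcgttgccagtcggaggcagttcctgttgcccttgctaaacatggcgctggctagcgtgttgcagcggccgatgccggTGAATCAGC
Psmd14 promoter: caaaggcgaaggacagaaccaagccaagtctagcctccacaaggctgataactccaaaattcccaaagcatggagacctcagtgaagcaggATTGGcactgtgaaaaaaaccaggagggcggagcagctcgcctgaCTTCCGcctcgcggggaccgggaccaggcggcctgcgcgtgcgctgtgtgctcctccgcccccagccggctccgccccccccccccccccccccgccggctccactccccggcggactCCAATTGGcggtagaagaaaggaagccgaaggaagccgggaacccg
An ETS core stood in 21 of these 36 windows (58.3%), against 17.2% of all 27025 windows and 21.5% of the 17492 windows of protein-coding genes. It stood in 13 of 17 windows of the 19S cap, 4 of 12 of the 20S core and 4 of 7 of the regulators. The antioxidant element core, the kind of site bound by NRF1 and NRF2, stood in 19 windows (52.8%), against 41.4% of all windows, and in 9 of the 12 of the 20S core. CCAAT stood in 13 (36.1%, against 37.9% of all), and the heat shock core GAANNTTC in 2 (5.56%, against 7.95%). Members with an ETS core had a median log2 difference of -0.62 between MRL/MpJ urine and PBS, and those without it -0.54. A match of letters is a description and not a binding site.

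Signals are Agilent processed signals in intensity units, and a difference is in log2 after each array was divided by its own 75th percentile. That percentile was 86.6 on the MRL/MpJ urine array, 75.7 on the lpr urine array and 158 on the PBS array, so the urine arrays were dimmer as a whole. The 8 spike-in probes that were well above background on all arrays had median log2 signals of 10.82, 10.71 and 10.77 in the same order of arrays. A gene counts as measured where its probe was well above background on both arrays compared, and as called where it was also at least 2-fold apart. Of the 44 members, 43 were well above background on all 3 arrays, and no probe was saturated. In bulk spleen cells, fewer cells of a type and less RNA per cell cannot be told apart. The repeated spots of the same probes gave a technical SD of a log2 difference of 0.052 for log2 signals above 8, 0.12 between 5 and 8 and 0.37 below 5. These values rest on spots within an array and hold no spread between arrays, labellings or cultures. They are thus not the error of a difference between urine and PBS. The value between 5 and 8 rests on only 18 sets of spots, each of a probe on an array.

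**Figure D1:**
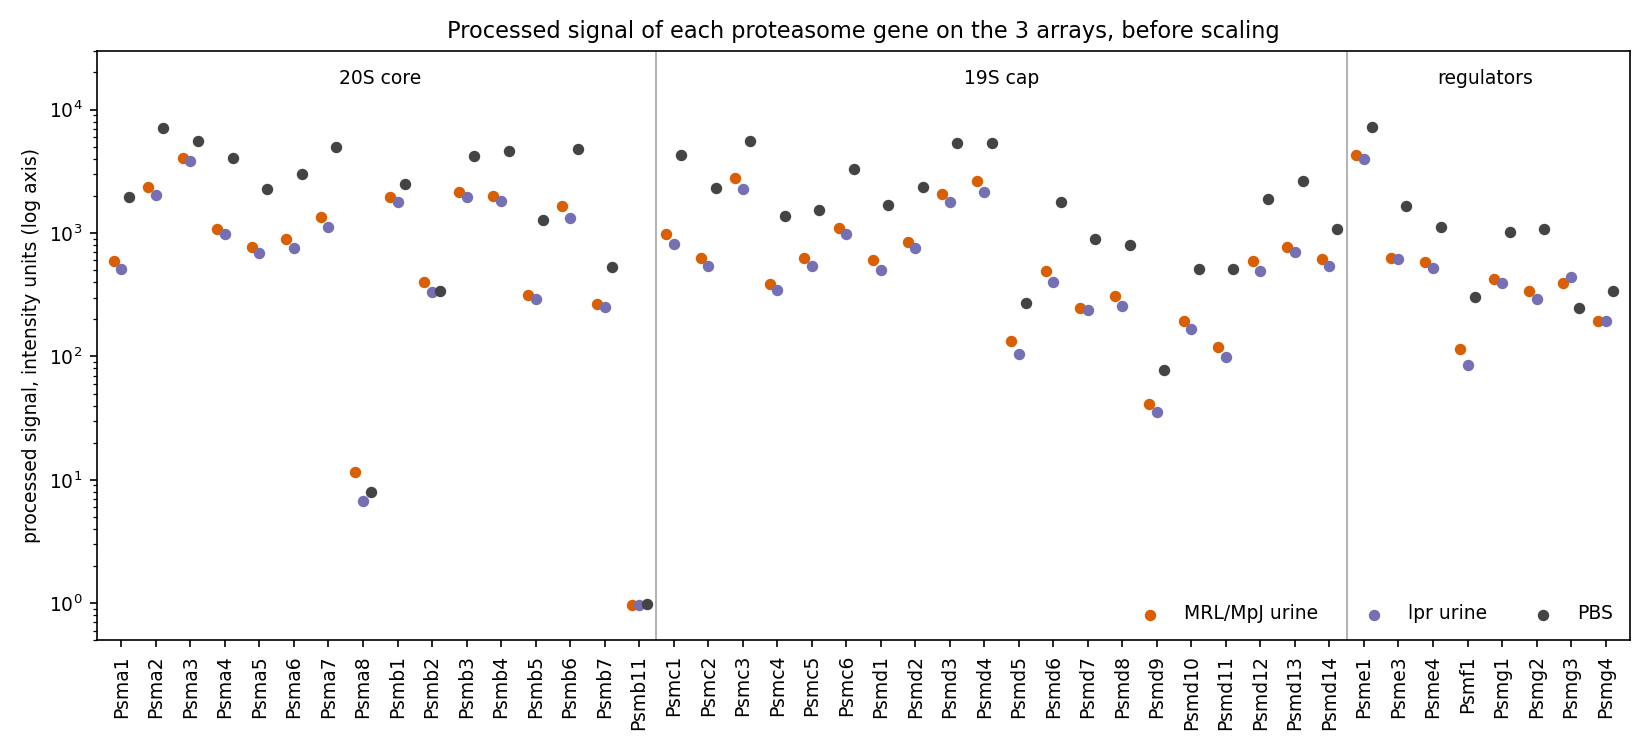
Processed signal (intensity units, log axis) of each proteasome gene on the MRL/MpJ urine, lpr urine and PBS arrays, before any scaling, by class. The PBS point lies highest for all genes but Psma8, Psmb2 and Psmg3.

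Before scaling, 40 of the 43 measured members were dimmer after MRL/MpJ urine than after PBS, all but Psma8, Psmb2 and Psmg3. With lpr urine 42 of 43 were dimmer than after PBS, all but Psmg3. The median ratio to PBS was 0.381 after MRL/MpJ urine and 0.321 after lpr urine, while that of all measured genes was 0.600 and 0.532. After scaling, the members' median log2 difference was -0.53 for MRL/MpJ urine against PBS and -0.58 for lpr urine against PBS. Over all measured genes the median was 0.13 and 0.15, and over genes at or above the median signal it was -0.03 and -0.04. Below 0 lay 35 of the 43 members in either comparison, against 44.7% of all genes for MRL/MpJ urine and 44.4% for lpr urine. Of genes at or above the median signal, 51.3% and 51.4% lay below 0. The members also lay closer together than genes at large: the middle 50% of members spanned 0.76 log2 units after MRL/MpJ urine and 0.81 after lpr urine, against 1.25 and 1.32 for all genes.

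Against PBS, 7 members were at least 2-fold lower after MRL/MpJ urine, which is 16.3% of the 43 against 11.1% of all genes. These were Psma4, Psma7 and Psmb5 of the core and Psmc1, Psmc2, Psmd6 and Psmd11 of the cap. Higher were 3 members, Psma8, Psmb2 and Psmg3, where 16.9% of all genes were. With lpr urine 6 members were lower (14.0% against 12% of all genes), the same names without Psma4, which was just short at -0.998. Psmb2 and Psmg3 were higher after lpr urine, where 18.5% of all genes were. With this scaling the 2-fold lower counts were thus a little above the background, and the 2-fold higher counts were below it. At 1.5-fold, 20 members (46.5%) were lower after MRL/MpJ urine and 21 (48.8%) after lpr urine, against 22.5% and 22.9% of all genes. Higher by 1.5-fold were 3 members with either urine, against 31.2% of all genes after MRL/MpJ urine and 33.4% after lpr urine. For genes at or above the median signal, the 2-fold shares were 11.2% and 12.4% lower and 12.5% and 13.0% higher. Their 1.5-fold shares were 25.7% and 26.2% lower and 26.0% and 27.2% higher, in the same order of urines.

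**Figure D2:**
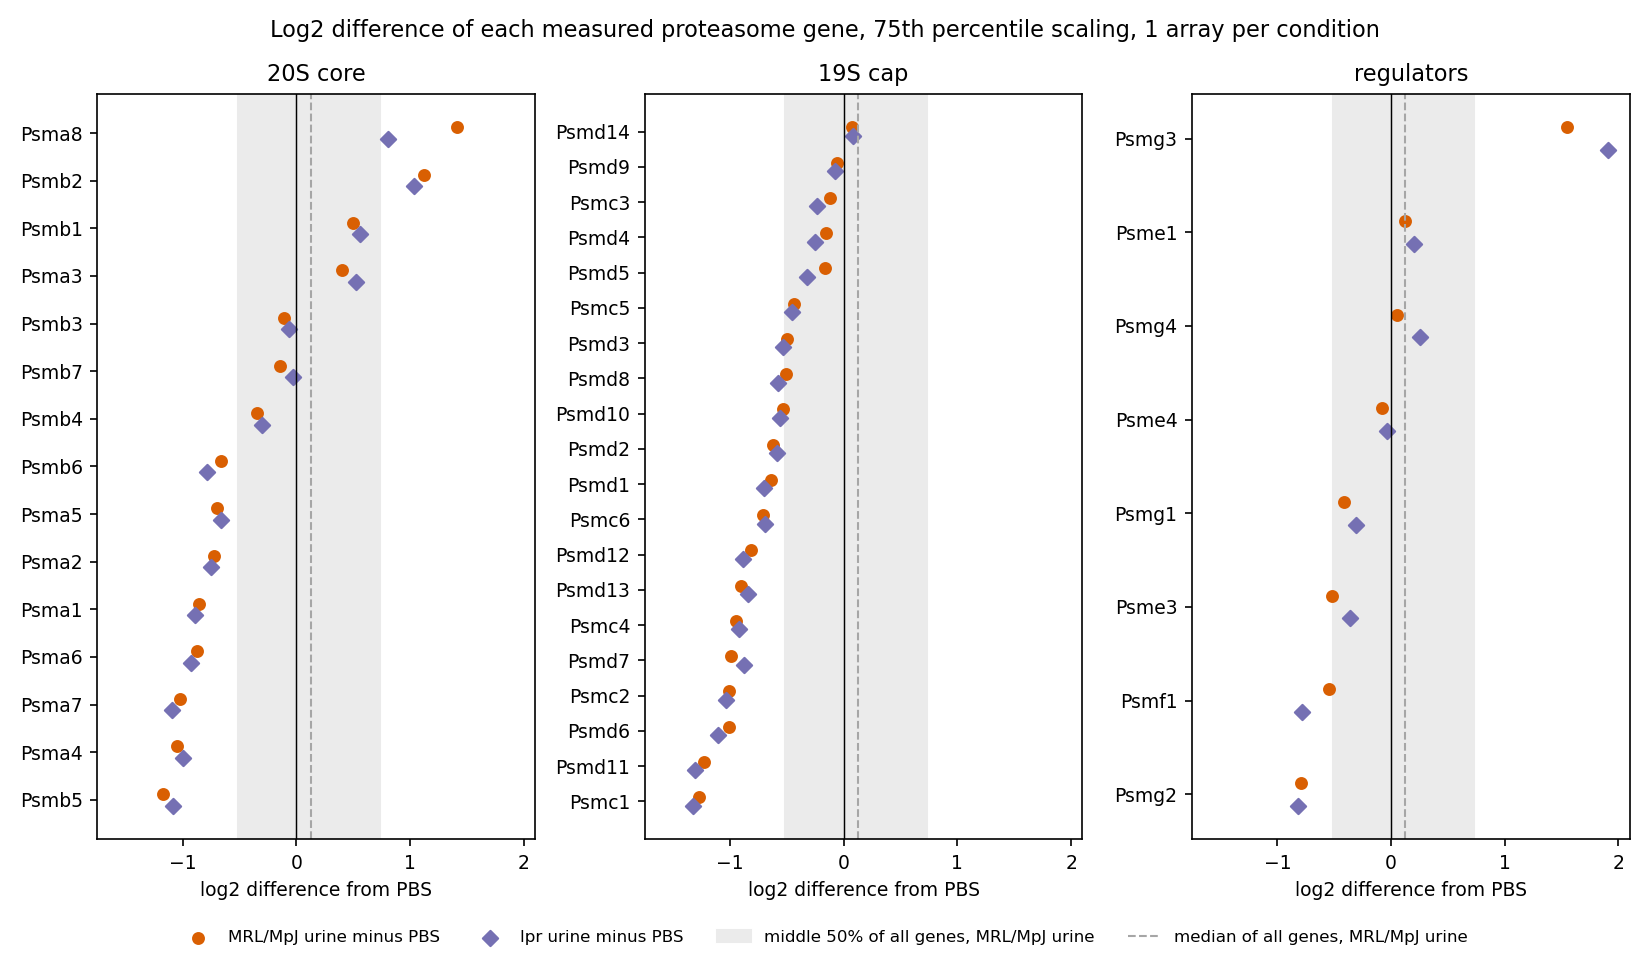
Log2 difference from PBS of the 43 measured members after MRL/MpJ urine (circles) and lpr urine (diamonds), by class, with the median (dashed line) and middle 50% (grey band) of all genes for MRL/MpJ urine. The 2 urines gave nearly the same value for most members, and 19 of the 20 genes of the 19S cap lay below 0 with both.

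Alpha ring genes of the core were lower as a group, with a median of -0.79 after MRL/MpJ urine and -0.82 after lpr urine over 8 genes. Psma7 had 1352 units after MRL/MpJ urine and 1122 after lpr urine, against 4997 after PBS, which left it 2.03-fold and 2.14-fold lower after scaling. Psma4 had 1079 units after MRL/MpJ urine and 978 after lpr urine, against 4065 after PBS (log2 difference -1.05 and -0.998). Both urine arrays were far below the PBS array for these 2 genes. The other 3 probes of Psma4, also to its RefSeq mRNA, gave smaller differences of -0.50, -0.47 and -0.47 after MRL/MpJ urine and -0.26, -0.37 and -0.30 after lpr urine. Psma1, Psma2, Psma5 and Psma6 lay between -0.88 (Psma6) and -0.70 (Psma5) after MRL/MpJ urine and between -0.93 (Psma6) and -0.66 (Psma5) after lpr urine.

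Psma3 stood apart from its ring. It had 4046 units after MRL/MpJ urine and 3843 after lpr urine, against 5574 after PBS, a log2 difference of 0.40 and 0.52. A second RefSeq probe gave 0.39 and 0.54, but a probe to an Ensembl transcript of the gene gave -1.48 and -1.70. Psma8, the alpha subunit of the testis proteasome, was barely above background at 11.6 units after MRL/MpJ urine, 6.68 after lpr urine and 7.94 after PBS. Its log2 differences from PBS of 1.41 and 0.81 rest on signals with a scanner error of 12.6%, 16.5% and 15.0%, against about 10% for every other measured member.

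Beta ring genes had medians of -0.15 after MRL/MpJ urine and -0.06 after lpr urine over 7 measured genes, and ranged from -1.17 (Psmb5) to 1.12 (Psmb2) after MRL/MpJ urine. With Psmb2 read by a RefSeq probe the medians were -0.35 and -0.30. Psmb5 had 313 units after MRL/MpJ urine and 289 after lpr urine, against 1280 after PBS, which was 2.25-fold and 2.13-fold lower. The caspase-like protease Psmb6 was lower too, at -0.66 and -0.79, whereas Psmb7, the trypsin-like protease, was at -0.15 and -0.03. The 3 protease subunits of the core thus did not share 1 difference. The structural subunits Psmb3 and Psmb4 were at -0.11 and -0.35 after MRL/MpJ urine and at -0.06 and -0.30 after lpr urine. Psmb1, another structural subunit, had 1949 units after MRL/MpJ urine and 1780 after lpr urine, against 2514 after PBS (0.50 and 0.56). Psmb11, the beta subunit of the thymus proteasome, was not well above background on any array.

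Psmb2 was called higher by its clone probe, at 402 units after MRL/MpJ urine and 332 after lpr urine, against 337 after PBS (log2 difference 1.12 and 1.04). Its RefSeq probes read 74.7 and 104 units after MRL/MpJ urine and 67.2 and 81.9 after lpr urine, against 235 and 310 after PBS. Their log2 differences were -0.79 and -0.72 after MRL/MpJ urine and -0.75 and -0.86 after lpr urine. The direction given for Psmb2 thus turned with the probe, and the sequences printed above show that the 2 kinds of probe read different stretches.

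By the chosen probes the 19S cap spanned the narrowest range of the 3 classes, from -1.27 to 0.07 after MRL/MpJ urine. Its medians were -0.63 after MRL/MpJ urine and -0.64 after lpr urine over 20 genes. By RefSeq mRNA probes alone, which changes Psmg3, the regulators spanned a similar range, from -1.21 to 0.12 after MRL/MpJ urine. Psmc1 (Rpt2), an ATPase that helps to open the core's gate, was the lowest of all 43 members. It had 980 units after MRL/MpJ urine and 821 after lpr urine, against 4295 after PBS, 2.41-fold and 2.51-fold lower. An overlapping probe to an Ensembl transcript, which shares 45 bases with it, gave -1.29 and -1.41. Psmc2 (Rpt1) had 631 units after MRL/MpJ urine and 538 after lpr urine, against 2302 after PBS, 2.01-fold and 2.05-fold lower. Psmc4 and Psmc6 were at -0.95 and -0.71 after MRL/MpJ urine and -0.92 and -0.69 after lpr urine, and Psmc5 at -0.44 and -0.45. Psmc3 had 2803 units after MRL/MpJ urine and 2258 after lpr urine, against 5527 after PBS, and at -0.12 and -0.23 was the ATPase nearest to the control.

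Lid subunits, which hold the deubiquitinase in place, had a median of -0.86 with either urine over 8 genes. Psmd11 (Rpn6), which clamps the cap onto the core, had 120 units after MRL/MpJ urine and 98.8 after lpr urine, against 509 after PBS, 2.34-fold and 2.48-fold lower. Psmd6 (Rpn7) had 490 units after MRL/MpJ urine and 401 after lpr urine, against 1797 after PBS, 2.02-fold and 2.15-fold lower. Psmd7, Psmd12 and Psmd13 lay at -0.99, -0.82 and -0.91 after MRL/MpJ urine and at -0.87, -0.88 and -0.84 after lpr urine. Psmd3 and Psmd8 were at -0.50 each after MRL/MpJ urine and at -0.53 and -0.58 after lpr urine. The exception was Psmd14 (Rpn11), the catalytic subunit that cuts the ubiquitin chain off. It had 620 units after MRL/MpJ urine and 544 after lpr urine, against 1071 after PBS, and a log2 difference of 0.07 and 0.08. Its second RefSeq probe gave -0.19 and 0.00, and a dim clone probe gave -0.26 after MRL/MpJ urine. By their chosen probes the other lid genes lay at -0.50 or lower with either urine. A second RefSeq probe of Psmd3 gave -0.31 after MRL/MpJ urine, close to these values.

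Of the non-ATPase base subunits, the scaffolds Psmd1 and Psmd2 were at -0.64 and -0.62 after MRL/MpJ urine and at -0.70 and -0.59 after lpr urine. The ubiquitin receptor Psmd4 (Rpn10) was at -0.16 and -0.25 by its brighter probe and at 0.10 and 0.13 by a second RefSeq probe. A probe to an Ensembl transcript of Psmd4 gave -0.93 and -1.02. The chaperones that assemble the base had smaller medians of -0.16 after MRL/MpJ urine and -0.33 after lpr urine over 3 genes. Psmd9 among them had 40.8 units after MRL/MpJ urine and 35.4 after lpr urine, against 77.5 after PBS, a log2 difference of -0.06 and -0.07. Psmd5 was at -0.16 and -0.33, and Psmd10 at -0.53 and -0.56.

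The regulators lay nearest to the control of the 3 classes, with medians of -0.25 after MRL/MpJ urine and -0.17 after lpr urine over 8 genes. By RefSeq mRNA probes alone, which changes Psmg3, they were -0.47 and -0.33. Psme1, the alpha subunit of the interferon-inducible 11S activator, had 4304 units after MRL/MpJ urine and 3981 after lpr urine, against 7184 after PBS (0.12 and 0.21). The array has 2 probes named Psme2b, which it also assigns to RefSeq mRNAs of Psme2, the partner of Psme1. The brighter was at 0.09 and 0.12, and the other at 0.32 and 0.29. Psme3, the nuclear activator, had 630 units after MRL/MpJ urine and 616 after lpr urine, against 1646 after PBS (-0.52 and -0.36). Stretches of that probe also matched the promoter windows of 12 other genes, and a dimmer Ensembl probe with 0 such matches gave -0.59 and -0.76. Psme4 (PA200) was at -0.08 and -0.03, and its 4 probes ranged from -0.45 to 0.49 after MRL/MpJ urine. Psmf1 had 114 units after MRL/MpJ urine and 84.6 after lpr urine, against 303 after PBS (-0.54 and -0.78). Its second RefSeq probe gave -0.01 and -0.25.

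Among the 4 chaperones of the 20S core, Psmg2 had 339 units after MRL/MpJ urine and 291 after lpr urine, against 1069 after PBS (-0.79 and -0.82). Its partner Psmg1 was at -0.41 and -0.30. Psmg4 had 193 units after MRL/MpJ urine and 194 after lpr urine, against 338 after PBS (0.05 and 0.26). Psmg3, the partner of Psmg4, had 394 units after MRL/MpJ urine and 443 after lpr urine, against 245 after PBS, which made it 2.92-fold and 3.76-fold higher. That reading came from a probe to the Ensembl transcript ENSMUST00000182743 at chr5:140300481-140300540 (mm9, minus strand). Its RefSeq mRNA probe, which begins 855 bases away at chr5:140299626-140299685, read 99.3 units after MRL/MpJ urine and 88.4 after lpr urine, against 417 after PBS. By that probe Psmg3 was lower, with log2 differences of -1.21 and -1.18.

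**Figure D3:**
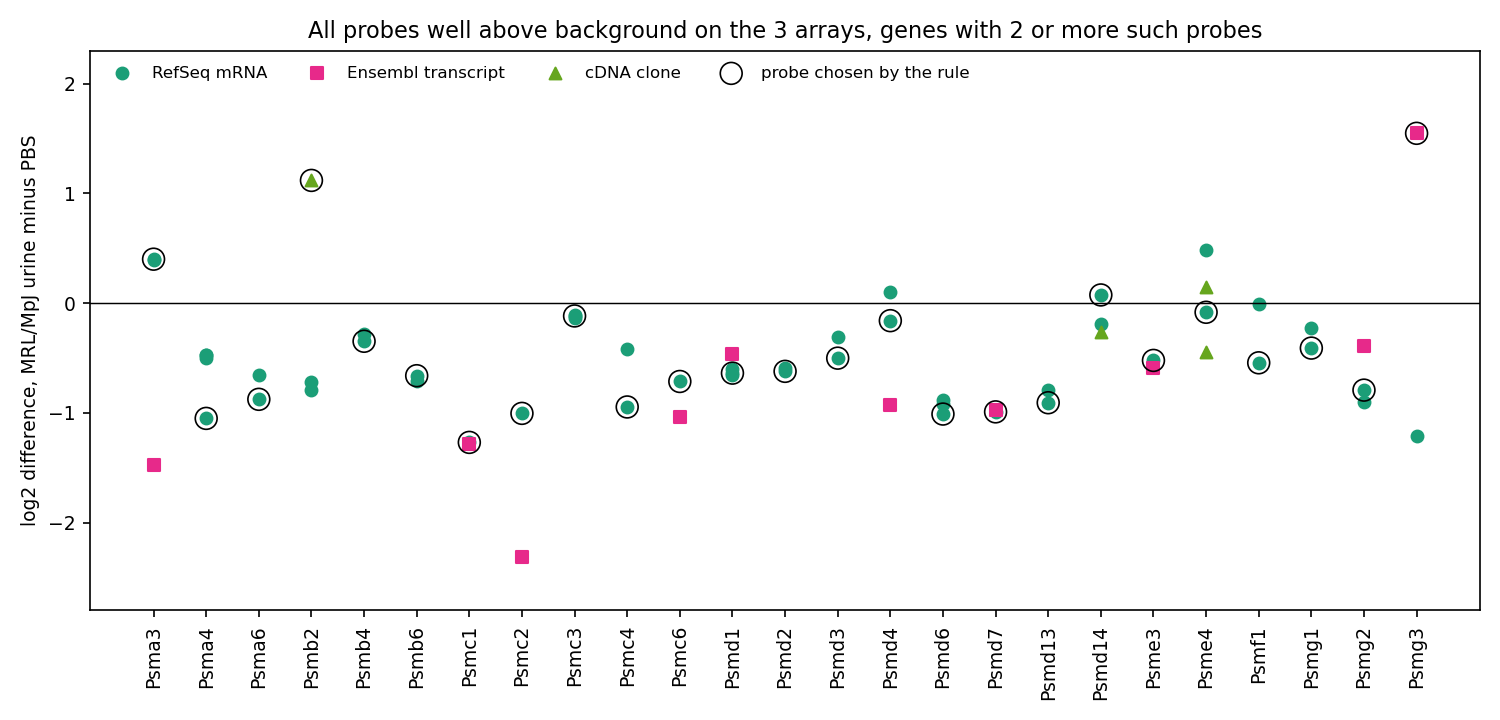
Log2 difference between MRL/MpJ urine and PBS of every probe well above background on the 3 arrays, for the 25 members with 2 or more such probes. Circled points are those chosen for the gene. The chosen points of Psmb2 (1.12) and Psmg3 (1.55) lie above 0 while their RefSeq probes lie below it.

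Of the 25 members with several measured probes, 19 had all probes on one side of 0 after MRL/MpJ urine and 20 after lpr urine. Where a gene had several RefSeq mRNA probes, these lay on one side for 16 of 19 genes after MRL/MpJ urine and 17 of 19 after lpr urine, with a median range of 0.13 and 0.14. Psmd4, Psmd14 and Psme4 were the exceptions after MRL/MpJ urine, and Psmd4 and Psme4 after lpr urine. The widest disagreement came from other transcripts. Psmc2, for example, had an Ensembl probe at 23.6 units after MRL/MpJ urine and 15.5 after lpr urine, against 213 after PBS (-2.31 and -2.73). With each gene read by its RefSeq mRNA probes alone, a choice made after the probes of Psmb2 and Psmg3 were seen to disagree, 37 of 43 members lay below 0 with either urine. The members' median was then -0.62 after MRL/MpJ urine and -0.66 after lpr urine, against -0.05 and -0.06 over all genes so read. Lower by 2-fold were 8 members after MRL/MpJ urine and 7 after lpr urine, against 12.6% and 13.9% of those genes, and higher were 1 (Psma8) and 0, against 12.8% and 13.8%.

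**Figure D4:**
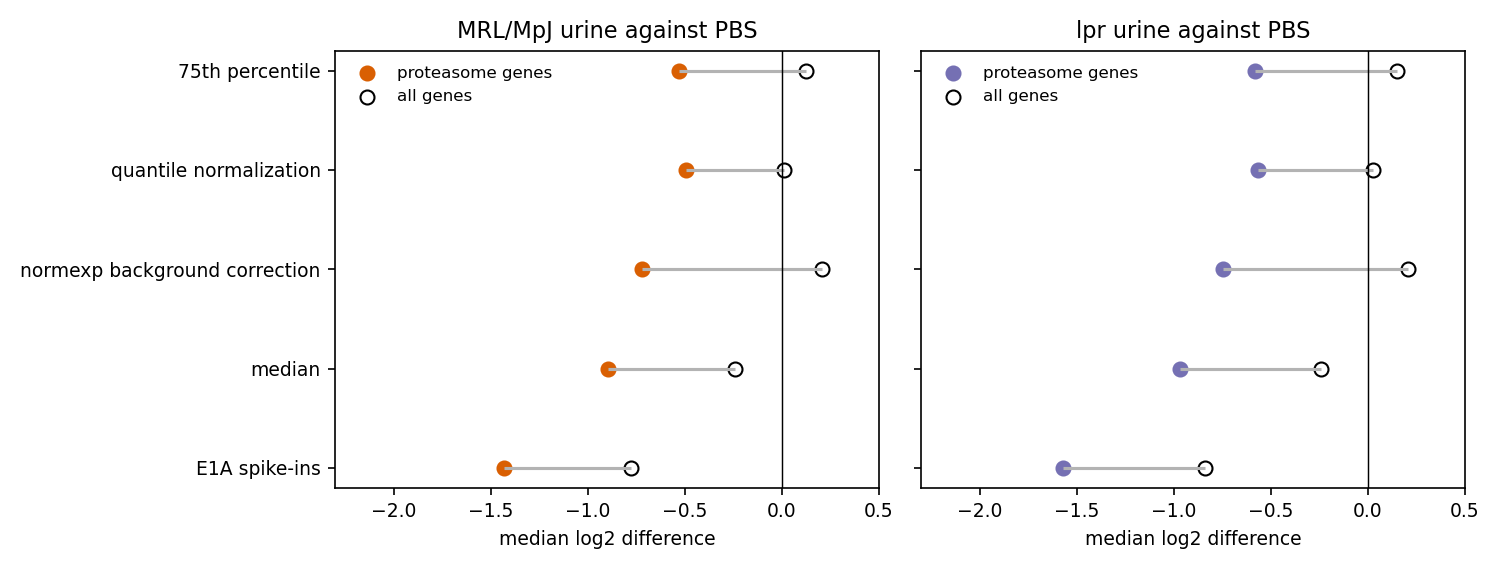
Median log2 difference of the 43 proteasome genes (filled) and of all measured genes (open) for MRL/MpJ urine and lpr urine against PBS, under 5 ways of scaling or background correction. The proteasome genes lie below all genes in each row, and both points lie furthest left when the arrays are scaled by the spike-ins.

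The arrays differed in overall brightness, and how far below PBS the members lay depended on the scaling. Scaling by the array median moved every log2 difference by -0.37 after MRL/MpJ urine and -0.39 after lpr urine, and scaling by the spike-ins by -0.90 and -0.99. The members at least 2-fold lower and higher were then 19 and 2 after MRL/MpJ urine and 20 and 1 after lpr urine under median scaling, where 21.0% and 22.1% of all genes were lower and 10.6% and 11.1% higher. Under spike-in scaling they were 33 and 0 after MRL/MpJ urine and 35 and 0 after lpr urine, where 40.8% and 44.0% of all genes were lower and 5.61% and 5.60% higher. Psma3, Psmb1, Psmd14, Psme1 and Psmg4, above 0 by the main scaling, were below 0 by the spike-ins, as was Psma8 for lpr urine. Relative to the median of all genes the members' median was -0.66 after MRL/MpJ urine and -0.73 after lpr urine under all 3 of these scalings. That equality is fixed by arithmetic, because each of the 3 shifts every gene of an array alike, so it is no check. The relative median was -0.50 and -0.59 after quantile normalization and -0.93 and -0.95 after normexp background correction. Normexp left 12 members (27.9%) lower by 2-fold after MRL/MpJ urine and 16 (37.2%) after lpr urine, against 8.23% and 9.66% of all genes. Quantile normalization left 5 members (11.6%) lower by 2-fold with either urine, against 12.4% and 13.0% of all genes, so that share was not above the background.

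The 2 urines were nearly alike for these genes. Between lpr urine and MRL/MpJ urine the members' median log2 difference was -0.01 and that of all genes 0.00. No member reached 2-fold in either direction, where 0.34% of all genes were higher and 0.06% lower. At 1.5-fold none was higher (2.32% of all genes were) and 1, Psma8, was lower (1.03% of all genes were). Within 0.2 log2 units of 0 lay 39 of 43 members (90.7%), against 71.6% of all genes and 88.1% of genes at or above the median signal. So the closeness was about that of other bright genes. The 4 members further apart were Psma8 (-0.61, on dim signals), Psmf1 (-0.24), Psmg4 (0.20) and Psmg3 (0.36, on its Ensembl probe). All 20 genes of the 19S cap lay within this limit, from -0.17 (Psmd5) to 0.12 (Psmd7). No measured member lay on opposite sides of 0 with the 2 urines. Both comparisons with PBS share the PBS array, so they are not independent of each other.

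By their chosen probes and the main scaling, the inducible beta subunits differed little from PBS. Psmb8, Psmb9 and Psmb10, which take the places of Psmb5, Psmb6 and Psmb7 in the immunoproteasome, were at -0.08, -0.18 and 0.15 after MRL/MpJ urine and at 0.02, -0.15 and 0.21 after lpr urine. Psmb8 had 2476 units after MRL/MpJ urine and 2314 after lpr urine, against 4758 after PBS. A dim Ensembl probe of Psmb9 gave -1.36 and -1.13. By the spike-ins Psmb8, Psmb9 and Psmb10 were at -0.98, -1.09 and -0.76 after MRL/MpJ urine. After lpr urine they were at -0.97, -1.14 and -0.78.

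Of the ubiquitin genes, Ubb and Rps27a went the other way after scaling, and 1 of these 2, Ubb, was higher by 2-fold with both urines, where 16.9% and 18.5% of all genes were. Ubb, a polyubiquitin gene, had 61731 units after MRL/MpJ urine and 57628 after lpr urine, against 43602 after PBS (log2 difference 1.36 and 1.46). It was brighter on the urine arrays even before scaling, and so was its second RefSeq probe. Rps27a, which encodes ubiquitin fused to a ribosomal protein, was at 0.63 after MRL/MpJ urine and 0.67 after lpr urine, and below 0 by the spike-ins.

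**Figure D5:**
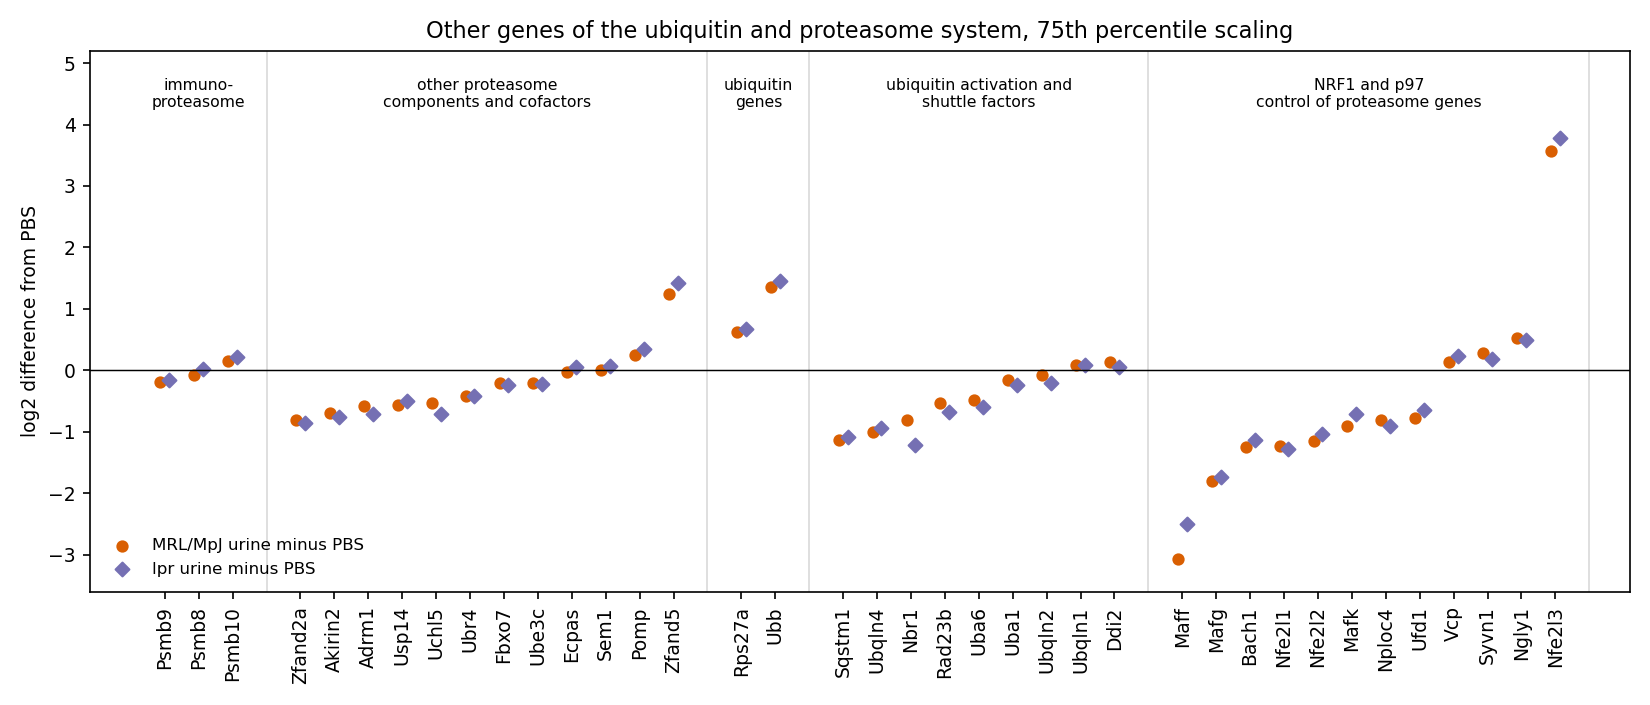
Log2 difference from PBS of other genes of the ubiquitin and proteasome system after MRL/MpJ urine (circles) and lpr urine (diamonds), by list. Ubb and Rps27a lie above 0, and Nfe2l1, Nfe2l2, Bach1 and the small Maf genes lie below it.

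Of 12 other proteasome components and cofactors, 1 was higher by 2-fold with either urine (16.9% and 18.5% of all genes were) and none lower (11.1% and 12%), with a median of -0.31 after MRL/MpJ urine and -0.32 after lpr urine. Sem1, a small lid subunit, was at 0.01 and 0.07, and the ubiquitin receptor Adrm1 at -0.58 and -0.71. Pomp, the chaperone that completes the core, was at 0.24 and 0.34. Akirin2, a factor for nuclear import of proteasomes, was at -0.70 and -0.76, and the stress-induced cofactor Zfand2a at -0.81 and -0.85. Zfand5, which promotes breakdown by the 26S proteasome, was higher at 1.25 and 1.42, and its 4 RefSeq probes ranged from 0.21 to 4.53 after MRL/MpJ urine and from 0.25 to 4.60 after lpr urine. By the spike-ins 2 of those 4 were below 0.

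Of 9 ubiquitin-activating enzymes and shuttle factors, none was higher by 2-fold with either urine (16.9% and 18.5% of all genes were), and 1 was lower after MRL/MpJ urine and 2 after lpr urine (11.1% and 12% of all genes), with a median of -0.48 after MRL/MpJ urine and -0.60 after lpr urine. Sqstm1 (p62), which links ubiquitin to autophagy, had 1205 units after MRL/MpJ urine and 1084 after lpr urine, against 4806 after PBS (-1.13 and -1.09). Its second RefSeq probe gave -0.30 and -0.13, and an Ensembl probe 3.41 and 3.00. The related receptor Nbr1 was at -0.80 and -1.21, and Ubqln4 at -0.9998 and -0.95, where a second, dim probe gave 0.18 and 0.62. Uba1, the main activating enzyme, was at -0.15 and -0.24.

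Genes that control proteasome genes had a median of -0.86 after MRL/MpJ urine and -0.81 after lpr urine. NRF1 (Nfe2l1) is held in the endoplasmic reticulum, pulled out by the p97 ATPase (Vcp), processed, and then raises proteasome genes together with small Maf proteins. Of 12 such genes, 5 were lower by 2-fold with either urine, where 11.1% of all genes were after MRL/MpJ urine and 12% after lpr urine, and 1 was higher (16.9% and 18.5% of all genes). Nfe2l1 had 233 units after MRL/MpJ urine and 196 after lpr urine, against 992 after PBS (-1.23 and -1.28), and its second, dimmer RefSeq probe gave -0.22 and 0.03. The related Nfe2l2 (NRF2) was at -1.15 and -1.03, and Bach1, a repressor of the same sites, at -1.25 and -1.14. The small Maf genes Maff and Mafg were at -3.07 and -1.80 after MRL/MpJ urine and at -2.50 and -1.73 after lpr urine, while Mafk was at -0.91 and -0.71. Nfe2l3, an NRF family member, was higher at 3.56 and 3.78, with 56.9 units after MRL/MpJ urine and 57.8 after lpr urine, against 8.76 after PBS. Its second RefSeq probe gave 0.74 and 1.26. Vcp was at 0.13 and 0.24, and its second RefSeq probe gave -0.17 with either urine. The Vcp cofactors Nploc4 and Ufd1 were at -0.80 and -0.78 after MRL/MpJ urine and -0.90 and -0.64 after lpr urine. Ngly1 and Syvn1 lay above 0, at 0.52 and 0.29 after MRL/MpJ urine and 0.49 and 0.19 after lpr urine.

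Markers of the cells in the culture were read beside these genes. The B cell markers Cd79a, Cd79b and Ms4a1 were measured on all arrays, with log2 differences from -0.23 (Cd79b) to 1.07 (Ms4a1) after MRL/MpJ urine and from -0.34 (Cd79b) to 0.99 (Ms4a1) after lpr urine. Before scaling, their summed signal was 14742 units after MRL/MpJ urine and 12094 after lpr urine, against 22910.1 after PBS. Cd79b alone had 16914 units after PBS, and the urine arrays were dimmer as a whole. After scaling, the median log2 difference of these B cell markers was 0.85 after MRL/MpJ urine and 0.84 after lpr urine. The 4 T cell markers lay between -0.13 and 0.27 after MRL/MpJ urine and between -0.05 and 0.32 after lpr urine. Of 3 macrophage and 2 neutrophil markers, all lay above 0 with both urines by the main scaling. By the spike-ins all of them lay below 0, except Cd68 after lpr urine (0.33). The dim NK cell markers split, with Ncr1 at 1.26 and 1.17 and Klrb1c at -0.52 and -0.49 by the main scaling. Of 4 markers of the urinary tract epithelium, 3 were not well above background and Upk1a had 9.52 units after MRL/MpJ urine and 8.77 after lpr urine, against 26.0 after PBS. The part of cell composition in the proteasome values was not tested.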

How the data were processed

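Total RNA of 3 cultures was labelled with Cy3 (0.05 µg each) and hybridised to 1 array each. The deposited intensity values are the scanner outputs of Agilent Feature Extraction 12.0.3.1, per the submitters' processing notes, and the authors' processed signal is background-subtracted and detrended by that software, per the file headers. From these, log2 of the processed signal minus the log2 of each array's 75th percentile was computed over 56599 probes left after control spots and flagged spots were removed. Per gene, the probe well above background on most arrays was taken, ties going to the higher mean log2 signal. Differences were called at 2-fold with both arrays well above background. There is no test, since each condition has 1 array. The arrays lay on 1 slide, and their number, the scaling, the choice of probe and dim signals limit the precision.

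Members, classes and gene lists were chosen with earlier results of these data known. Members were described in full where they were 2-fold apart, among the 3 highest or lowest of their class, or not well above background. In other lists, genes were named for the largest differences, and some for their role, with their values known. Some genes of these lists are not reported here and stay out of their counts. The alternatives were scaling by the median or by spike-ins, quantile normalization, normexp background correction (offset 50, limma 3.58.1), the mean of a gene's probes, no filter on dim probes, 1.5-fold, each other probe, and RefSeq mRNA probes alone. The call rule was tested on simulated data. Probe coordinates are those of the array files (mm9). Promoters are RefSeq windows (GRCm38.p6), 1 per gene, and no exon annotation of mm9 was used here.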

Additional observations from a re-analysis of the deposited data

How the results depend on the processing

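The direction of the members' median and of each class's median against PBS was negative under all alternatives run, and no alternative gave a 2-fold member between lpr urine and MRL/MpJ urine. No paired analysis was possible because each condition has 1 array. Values are given for MRL/MpJ urine against PBS and then for lpr urine against PBS.

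Scaling by the median gave 19 and 20 members lower, 1 higher with lpr urine, medians of -0.90 and -0.97 for the members, -1.03 and -1.05 for the 20S core, -0.998 and -1.03 for the 19S cap, and -0.61 and -0.56 for the regulators. Scaling by the spike-ins gave 33 and 35 lower, 0 and 0 higher, and medians of -1.43 and -1.57, -1.57 and -1.65, -1.53 and -1.63, and -1.15 and -1.16 for the same sets. Both scalings shift every gene alike. Normexp gave 12 and 16 lower (8.23% and 9.66% of all genes), 1 and 1 higher (6.97% and 7.32%), and medians of -0.72 and -0.75, -0.90 and -0.94, -0.83 and -0.92, and -0.40 and -0.43; the cause was not tested. The mean of a gene's probes gave 1 and 0 higher, a median of the regulators of -0.12 and -0.0049, and with lpr urine -0.52 for the members, -0.48 for the core and -0.56 for the cap. RefSeq mRNA probes alone gave 1 and 0 higher, -0.62 and -0.66 for the members, -0.47 and -0.33 for the regulators, and -0.75 for the core with lpr urine. Without the filter on dim probes, which adds Psmb11, the core's median was -0.50 and -0.48. At 1.5-fold 20 and 21 members were lower. Between lpr urine and MRL/MpJ urine, 1 was then lower (Psma8). For that comparison the spike-ins gave -0.10 for the members, -0.051 for the core, -0.12 for the cap and 0.0079 for the regulators, and normexp -0.039 for the core, -0.091 for the cap and 0.011 for the regulators, so the core's sign turned there.

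Among members at least 2-fold apart, reversals came with the choice of probe. Psmb2 was at -0.13 and -0.19 by the mean of its probes, and at -0.79 and -0.75 or -0.72 and -0.86 by its RefSeq probes. Psmg3 was at -1.21 and -1.18 by its RefSeq probe. Psmd11 was at 0.44 with lpr urine by a dim Ensembl probe. Of members less than 2-fold apart, Psma3 was at -1.48 and -1.70 by an Ensembl probe, Psmd4 at 0.10 and 0.13 and Psme4 at 0.49 and 0.71 by second RefSeq probes, and Psmd14 at -0.19 after MRL/MpJ urine. Psma3, Psmb1, Psmd14, Psme1 and Psmg4 turned below 0 under spike-in scaling, as did Psma8 for lpr urine. Quantile normalization changed no count by 1.5-fold or more. It left 5 members (11.6%) lower by 2-fold with either urine, against 12.4% of all genes after MRL/MpJ urine and 13.0% after lpr urine. With that setting the share of members lower by 2-fold was thus not above the background. Psma8 was close to background, so its differences are the least certain.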
